A study of Homo sapiens with 4 samples.

Results

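Shelterin and its partners guard the ends of chromosomes, and 10 of their genes were followed in TE-1 cells, an established line of esophageal squamous cell carcinoma (ESCC), after silencing of the forkhead transcription factor FOXM1. The genes were POT1, TERF1, TERF2, TERF2IP, TINF2 and ACD of shelterin, CTC1 and STN1 of the CST complex, and TERT and DKC1 of telomerase. They were taken by name as the telomere protection genes around POT1, which was itself selected on its log2 difference between the silenced and control arrays, and each was read from the probe set with the highest mean among those that carry its symbol and no other. By this rule 9 of the 10 genes were measured, among 14232 genes in all. DKC1 occurs only in a probe set that also carries 2 small nucleolar RNA genes, and no value is given for it. The samples were 4 Affymetrix arrays of total RNA. Of these, 2 came from TE-1 cells transfected with siRNA against FOXM1 (TE-1-siFOXM1) and 2 from cells transfected with a scrambled control siRNA (TE-1-SCR), both by lipofection and harvested a day after the second of a pair of transfections. The cells carried no other stated modification. A single cell line, 1 siRNA product against FOXM1 and 1 time point were used, and the sources used here do not state whether the replicates were separate cultures, so their spread may be technical.

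Telomeres are tracts of TTAGGG repeats that end in a single-stranded 3′ overhang. TERF1 and TERF2 bind the double-stranded repeats, TINF2 links them to ACD (also called TPP1), and ACD brings in POT1, which covers the overhang. This assembly keeps the DNA damage response away from chromosome ends and regulates telomerase, the reverse transcriptase that most carcinomas, unlike most normal tissues, switch on to maintain their telomeres. The CST complex then helps DNA polymerase alpha to fill in the complementary strand.

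Promoter sequences of 7 of the 10 genes (POT1, TERF2IP, TINF2, ACD, TERT, DKC1 and STN1, with 2 entries for TINF2) were matched by symbol in RefSeq tables of the assembly GRCh38.p14. TERF1, TERF2 and CTC1 were not matched. Each window runs from 250 bases before to 50 bases after the annotated start of the gene. The POT1 window is shown because POT1 was the gene of this group that differed most between the groups of arrays. The ACD window is shown because ACD is the direct partner of POT1 and differed little. POT1 lies on the minus strand at chr7:124929776-124930075 and ACD on the minus strand at chr16:67660211-67660510. Both are written 5′ to 3′, and the capital marks the annotated first transcribed base.
POT1: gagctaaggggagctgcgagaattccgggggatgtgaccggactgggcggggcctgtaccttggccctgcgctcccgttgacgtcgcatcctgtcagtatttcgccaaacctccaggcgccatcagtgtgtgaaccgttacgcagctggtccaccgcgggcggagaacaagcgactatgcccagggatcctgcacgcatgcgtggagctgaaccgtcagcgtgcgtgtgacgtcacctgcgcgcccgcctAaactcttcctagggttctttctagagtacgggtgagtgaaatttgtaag
ACD: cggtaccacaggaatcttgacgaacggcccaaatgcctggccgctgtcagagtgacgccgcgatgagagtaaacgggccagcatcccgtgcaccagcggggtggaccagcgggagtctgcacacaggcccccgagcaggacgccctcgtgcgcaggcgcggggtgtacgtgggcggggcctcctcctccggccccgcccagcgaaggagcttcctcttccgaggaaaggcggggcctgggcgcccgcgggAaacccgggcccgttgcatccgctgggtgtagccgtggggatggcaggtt
These windows were searched on both strands for the forkhead heptamer NNAAANA, in which the first N is A or G and each later N is C or T, and for TTNGAA, in which N is T or C, the letters of the cell cycle homology region (CHR) through which the MuvB complex recruits FOXM1 to mitotic genes. Neither motif occurred in any of the 8 windows of the 7 genes. Of 35116 promoter windows of the same length, 24.3% held a forkhead heptamer, 16.4% a CHR hexamer and 6.12% both. The G and C content was 60.3% in the POT1 window and 70.0% in the ACD window, against a median of 58.7% over all windows, and was between 63.0% and 77.3% in the other 6. A missing match concerns only these letters in these windows.

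FOXM1 itself checks the labels. Silenced cells had log2 values of 8.28 and 8.06 for it and control cells 10.55 and 9.75, or -1.98 as a difference (limma: standard error 0.30, adjusted p = 1). The groups did not overlap, and an exact permutation test gave 0.333, the smallest two-sided p that 2 arrays against 2 allow. Over all 22011 probe sets, limma called 0 (0%) at an adjusted p of 0.05, while 680 (3.09%) had an unadjusted p under 0.05. Of 10 epithelial and squamous marker genes, 6 were measured and all lay above the median level of the arrays (7.58), among them KRT8, CDH1 and EPCAM. The squamous markers KRT5, KRT6A, TP63 and SOX2 were not measured under a symbol of their own, and KRT14 was at 7.70 to 8.15. Of 9 measured markers of blood, endothelial and stromal cells, 8 lay below the median level, with the leukocyte marker PTPRC at 3.50 to 3.74 and COL1A1, at 7.70 to 7.92, the exception.

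POT1, whose protein covers the single-stranded telomere end, had a 1.92-fold lower RNA level in TE-1-siFOXM1 cells, or at 52.0% of the control. The silenced replicates had log2 values of 7.70 and 7.64 (7.67 ± 0.037, mean ± SD, n = 2). The control replicates had 8.72 and 8.50 (8.61 ± 0.16, mean ± SD, n = 2). Both silenced arrays lay below both control arrays. The gap between the groups was 0.80 on the log2 scale, whereas the arrays of a group were at most 0.22 apart. POT1 was chosen for this difference of -0.94, so it is given as a description with no test. The arrays measured bulk RNA, in which fewer cells that express a gene and less of its RNA per cell cannot be told apart. Taken by replicate number, the difference was -1.03 between the replicates numbered 1 and -0.86 between those numbered 2. It was -0.83 without SCR replicate 1 and -1.05 without SCR replicate 2, and stayed past the study's 1.5-fold criterion without each of the 4 arrays in turn. Of the 14232 genes, 13 had a larger decrease than POT1.

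**Figure D1:**
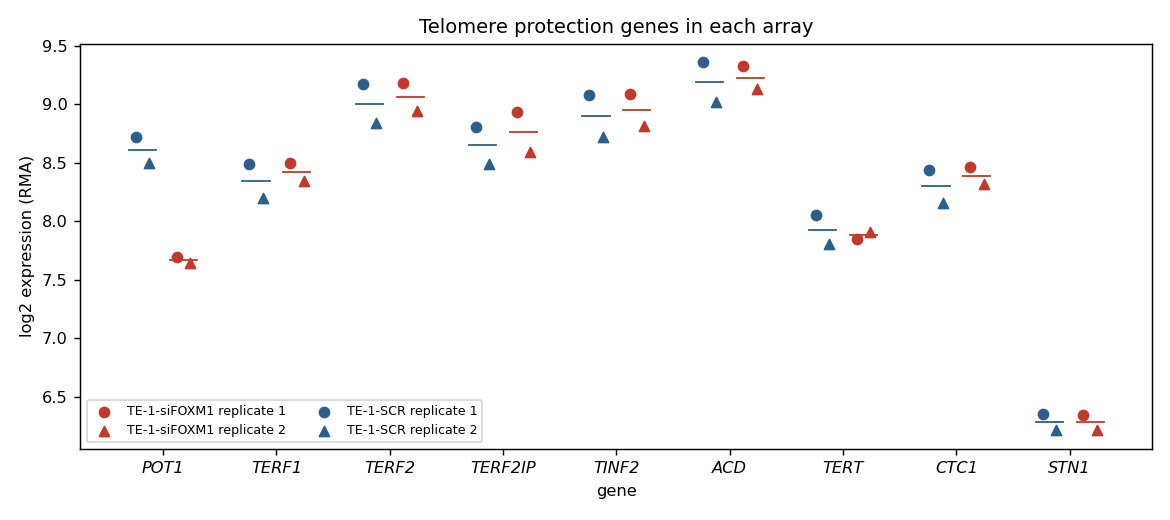
Log2 expression (RMA, vertical axis) of the 9 measured telomere protection genes in each of the 4 arrays; circles are replicates numbered 1, triangles replicates numbered 2, and short lines the group means (n = 2). Only for POT1 do the silenced arrays (7.64 and 7.70) and the control arrays (8.50 and 8.72) stand apart, and levels of different genes come from different probes and are not comparable.

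The rest of shelterin showed no such difference. ACD, which tethers POT1 to the complex and also recruits telomerase, was at 9.33 and 9.13 in TE-1-siFOXM1 cells and at 9.36 and 9.02 in TE-1-SCR cells. The silenced values lay between the control values, and the log2 difference was 0.040. TINF2, the bridge between ACD and the duplex-binding proteins, was at 9.09 and 8.82 after silencing and at 9.08 and 8.72 in the control, a difference of 0.052. Its arrays were ordered by replicate number rather than by siRNA: both replicates numbered 1 lay above both numbered 2. The same order held for ACD, TERF1, TERF2 and TERF2IP. The share of all genes with this order was not computed. Replicate 1 was the higher in 9017 of the 14232 genes in TE-1-siFOXM1 cells and in 10530 in TE-1-SCR cells.
TERF1, which binds duplex repeats and limits telomere length, was at 8.50 and 8.34 in TE-1-siFOXM1 cells and at 8.49 and 8.20 in TE-1-SCR cells, a difference of 0.073. TERF2, which is needed for the protective telomere loop, was at 9.18 and 8.95 against 9.17 and 8.84, a difference of 0.057. TERF2IP, the TERF2 partner known as RAP1, was at 8.93 and 8.59 against 8.81 and 8.49. Its difference of 0.12 was the largest of the 8 other genes in either direction and amounted to 1.08-fold. In all 5 of these shelterin genes the groups overlapped. Their median difference was 0.057, beside 0.0033 over all genes.

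The genes of the CST complex and of telomerase also overlapped between the groups. CTC1, the large subunit of CST, was at 8.46 and 8.32 in TE-1-siFOXM1 cells and at 8.44 and 8.16 in TE-1-SCR cells, a difference of 0.090. STN1, a smaller subunit of CST, was at 6.34 and 6.22 against 6.35 and 6.21, with a mean of 6.28 in both groups. It was the only measured gene of the 9 below the median level of the arrays. TERT, the catalytic subunit of telomerase, was at 7.85 and 7.91 after silencing and at 8.05 and 7.81 in the control. Its difference was -0.046, and it was -0.20 between the replicates numbered 1 and 0.11 between those numbered 2, opposite in sign.
Of the 9 genes, 1 (POT1) was at least 1.5-fold lower and 0 were higher, where 0.450% of all genes were lower and 0.562% higher by this criterion. Lower without overlap was 1 of the 9, against 13.8% of all genes, and 0 of the 9 were higher without overlap, against 13.5% (27.3% in either direction). Since this comparison chose POT1, nothing is read from these counts. The median absolute difference of the 8 other genes was 0.054, beside 0.096 over all genes. Taken by replicate number, the difference was above 0 in both numbers for 5 of the 8 (TERF1, TERF2, TERF2IP, TINF2 and CTC1) and opposite in sign for ACD, TERT and STN1. When 1 array was left out, the 8 differences ran from -0.17 to 0.29 and each changed sign in at least 1 case. Leaving out an array also unbalances the replicate numbers between the groups, by which the arrays of most of these genes were ordered. By arithmetic, where SCR replicate 1 is the higher, leaving it out raises the difference and leaving out SCR replicate 2 lowers it. SCR replicate 1 was the higher in all 8 genes. For TERF2 the difference was 0.22 without SCR replicate 1 and -0.11 without SCR replicate 2.

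**Figure D2:**
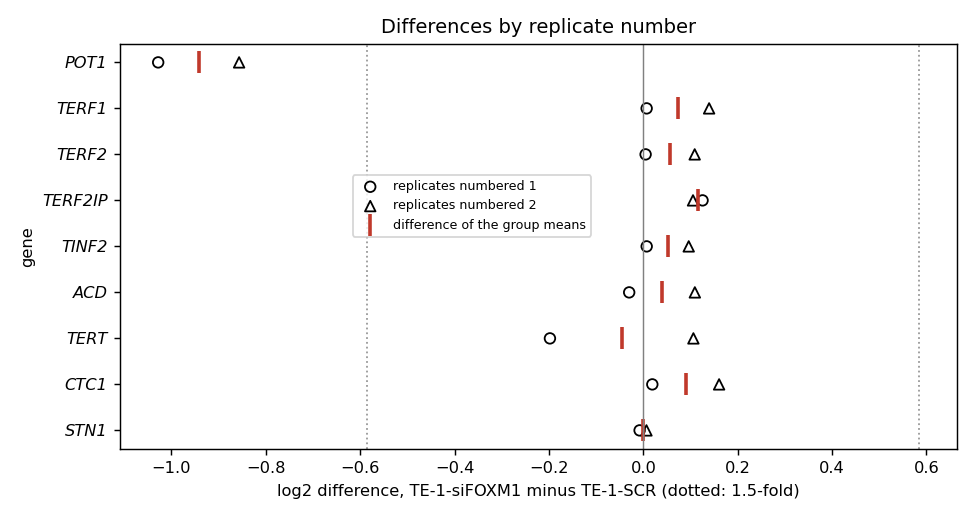
Log2 difference, TE-1-siFOXM1 minus TE-1-SCR (horizontal axis), for each gene between the replicates numbered 1 (circles), between those numbered 2 (triangles) and between the group means (red bars), with dotted lines at 1.5-fold. POT1 lies at -1.03, -0.86 and -0.94, and the other 8 genes lie between -0.20 and 0.16.

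**Figure D3:**
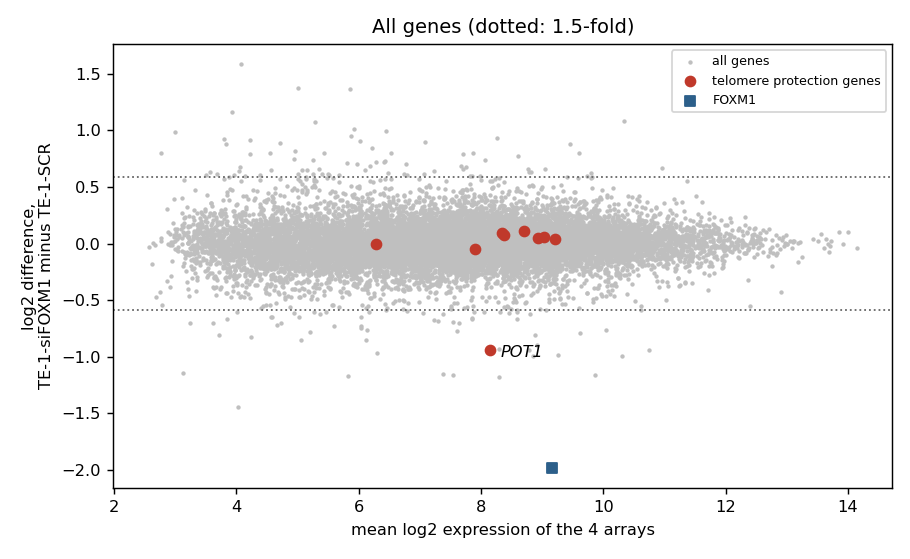
Difference of the group means (vertical axis, log2) against the mean log2 expression of the 4 arrays (horizontal axis) for all 14232 genes in grey, the 9 telomere protection genes in red and FOXM1 as a blue square, with dotted lines at 1.5-fold. POT1 (-0.94) lies below the lower dotted line, and the other red points lie near 0, between -0.046 and 0.12.

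The differences between the replicates of a group are given as a description. POT1 was selected with its differences by replicate number in view, and those depend on the replicate differences. Replicate 1 exceeded replicate 2 in 8 of the 9 genes in TE-1-siFOXM1 cells, with TERT (-0.060) the exception, and in 9 of 9 in TE-1-SCR cells. The median of this difference was 0.15 in TE-1-siFOXM1 cells and 0.29 in TE-1-SCR cells. Over all genes the medians were 0.078 and 0.14, with replicate 1 higher in 9017 and 10530 of the 14232 genes. The array medians moved the same way, 7.62 and 7.56 in TE-1-siFOXM1 cells and 7.63 and 7.54 in TE-1-SCR cells. After quantile normalization the medians over the 9 genes were 0.038 and 0.14. TERF2IP differed most between the silenced replicates (0.34) and TINF2 between the control replicates (0.36). Both exceeded the difference between the groups of every gene here but POT1, which was chosen for that difference. POT1 differed by 0.053 and 0.22 between its replicates.

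Beyond these genes, 52 others with roles at telomeres were listed, of which 41 were measured. None was at least 1.5-fold apart (0.450% of all genes were lower and 0.562% higher), and none passed limma at an adjusted p of 0.05. An unadjusted limma p under 0.05 was found for 0 of the 41, beside 261 of the 14232 genes in all. The lowest of the 41 was 0.15. Lower without overlap were 3 of the 41 and higher without overlap were 3, beside 13.8% and 13.5% of all genes. Their median difference was 0.020 and their median absolute difference 0.087.
Of 11 genes of the telomerase ribonucleoprotein and its assembly, 8 were measured. NOP10, a core protein of H/ACA particles such as telomerase, was the highest (0.17, standard error 0.24). RUVBL1, an ATPase needed for telomerase assembly, was the lowest (-0.12, standard error 0.35). The standard errors of the 41 genes are from limma without a block and include differences between replicate numbers. For RUVBL1, replicate 1 minus replicate 2 was 0.64 in TE-1-siFOXM1 cells and 0.77 in TE-1-SCR cells. The telomerase RNA gene TERC shares its probe set with another gene and is not reported. Of 12 telomere regulators, 11 were measured, between -0.19 for RIF1 (standard error 0.14), which acts in the repair and replication timing of DNA, and 0.19 for MCRS1 (standard error 0.26). The tankyrases TNKS and TNKS2, which modify TERF1 and release it from telomeres, lay within this range. RIF1 was at 9.03 and 8.99 in TE-1-siFOXM1 cells and at 9.14 and 9.25 in TE-1-SCR cells, so that its groups did not overlap.
Of 12 genes of telomere replication and end processing, 9 were measured. The helicase gene BLM had the largest increase of the 41 genes (0.26, standard error 0.15), with 8.34 and 8.11 after silencing and 7.93 and 8.003 in the control. PRIM2, a primase subunit, was the lowest of its group (-0.14, standard error 0.14). Of 9 genes of damage signalling, 6 were measured. NBN, the subunit that links the MRE11 complex to the ATM kinase, had the largest decrease of the 41 genes (-0.31, standard error 0.18). It was at 8.79 and 8.47 in TE-1-siFOXM1 cells and at 9.06 and 8.82 in TE-1-SCR cells, without overlap. MRE11, the nuclease of the same complex, was the highest of its group (0.17, standard error 0.16), with overlap. All 7 genes of telomere chromatin were measured, between -0.11 for CBX5 (standard error 0.15), which encodes heterochromatin protein HP1 alpha, and 0.14 for SUV39H1 (standard error 0.17), a histone H3 methyltransferase. The last CST subunit, TEN1, was not measured.

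**Figure D4:**
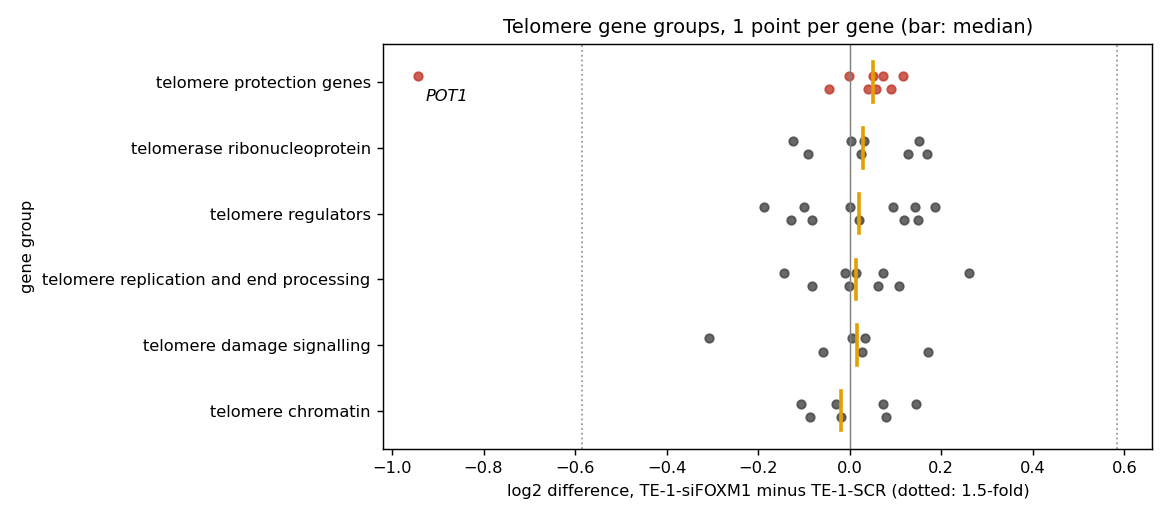
Log2 difference, TE-1-siFOXM1 minus TE-1-SCR (horizontal axis), with 1 point per gene, for the 9 telomere protection genes (red) and 41 other telomere genes in 5 groups (grey); orange bars are medians and dotted lines mark 1.5-fold. All 41 other genes lie between -0.31 (NBN) and 0.26 (BLM), and POT1 lies at -0.94.

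The genes whose profile over the 4 arrays was nearest to that of POT1 were ranked by the Euclidean distance between log2 values, each taken relative to the mean of its gene. The nearest were UAP1, an enzyme of UDP-N-acetylglucosamine synthesis (distance 0.069), the syntaxin STX11 (0.085), cyclin G1, encoded by CCNG1 (0.16), the mitochondrial magnesium channel MRS2 (0.19) and the Rag GTPase RRAGC (0.22). Their differences were -0.94, -0.97, -0.99, -0.89 and -0.81, and STX11 was dimmer than the median probe set. With 4 arrays, such a ranking mainly finds genes with a similar decrease, and the result is a description. UAP1 was at 10.35 and 10.21 in TE-1-siFOXM1 cells and at 11.36 and 11.09 in TE-1-SCR cells, and like POT1 it was lower in both silenced arrays. The 8 other telomere protection genes lay at distances from 0.90 (TERT, ranked 4285 among all genes) to 1.08 (TERF2IP, ranked 10700). FOXM1, whose decrease was larger, was ranked 11713.

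**Figure D5:**
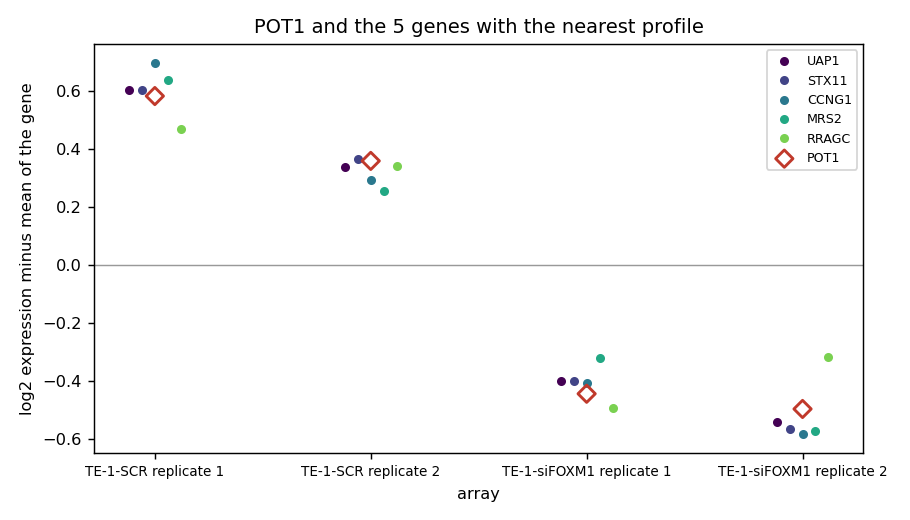
Log2 expression minus the mean of the gene (vertical axis) in each array (horizontal axis) for POT1 (red diamonds) and the 5 genes with the nearest profile (points, spread sideways for legibility). All 6 genes lie above 0 in the TE-1-SCR arrays and below 0 in the TE-1-siFOXM1 arrays, and UAP1 (distance 0.069) lies closest to POT1.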

How the data were processed

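Total RNA of TE-1 cells was the starting material, and biotin-labelled material made from it was hybridized to Affymetrix arrays, 2 per group. For the biopsies, the paper describes the labelled material as cDNA. Robust multi-array average (RMA) was run by the authors, per the labels in Affymetrix Expression Console with the build hg18, and the log2 values of 22011 probe sets were deposited for each array. Versions, and which arrays were normalized together, are not given in the sources used here. RMA draws arrays toward a common distribution, so a change shared by most genes could not be seen. Groups and replicate numbers came from the sample titles.
From the platform annotation, 14432 probe sets carry 1 symbol and name 14232 genes, 2408 carry several, and the rest carry none. Of the 14232 symbols, 14208 occur in the current RefSeq table. Differences are group means of log2 values, TE-1-siFOXM1 minus TE-1-SCR. Limma (version 3.58.1, R 4.3.3) was fitted to all probe sets without a block, with Benjamini-Hochberg adjustment. A run on simulated arrays with independent noise was required to return the sign and mean size of the changes put in. No number of calls was required of it. The deposited arrays correlated with r between 0.984 and 0.992, and their number limits the precision. Between the groups, the arrays numbered 2 gave 0.992 and those numbered 1 gave 0.988. The arrays of the same group gave 0.987 (TE-1-siFOXM1) and 0.985 (TE-1-SCR).
The members, gene lists and motifs were chosen with earlier results of these data known. Named are the measured members, FOXM1, in each list the other genes with the largest increase and decrease and any at least 1.5-fold apart, and the 5 genes nearest to POT1 in profile. TNKS and TNKS2, the marker genes and the genes of the closing section were named beside this rule after values were seen. The alternatives were centring, quantile normalization, a level filter, averaging over probe sets, linear means, a 2-fold criterion, no overlap, leaving out each array, the replicate number as a block, and an intensity trend with robust estimation.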

Additional observations from a re-analysis of the deposited data

How the results depend on the processing

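The decrease of POT1, for which the gene was chosen, kept its direction and the 1.5-fold criterion with centring, quantile normalization, linear means and each array left out. The groups of POT1 did not overlap. The level filter and averaging over probe sets could not change its value, because POT1 has 1 probe set and lies above the median level. The 2-fold criterion leaves 0 members lower in place of 1. The replicate block and the intensity trend were run for the limma results and not for the members. The log2 difference of POT1 was between -1.05 and -0.83 when 1 array was left out. The other members and the 41 other telomere genes stayed within 1.5-fold under the same alternatives. Over all genes, 64 lower and 80 higher became 27 and 23 when dimmer probe sets than the median were left out, and 8 and 7 by the 2-fold criterion. Leaving out 1 array gave between 74 and 258 lower and between 113 and 232 higher genes, and it gave 1 member lower each time. The median of replicate 1 minus replicate 2 over the members in TE-1-SCR cells, 0.29, was 0.20 after centring and 0.14 after quantile normalization, alternatives that were chosen after seeing the data. With the replicate number as a block, 0 probe sets passed limma (lowest adjusted p = 0.665, against 0.709 without it). FOXM1, with a difference of -1.98 in both fits, had an adjusted p of 0.665 in the block fit and between 0.406 and 1 under the other alternatives. The labels do not say that a number marks a shared batch, and the deviations of the arrays of a number correlated with r = 0.34 over all probe sets. The 2 arrays per group, of unstated independence, limit how small a difference can be seen.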

Other observations

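Genes of other proteins that bind single-stranded DNA differed little in RNA level between the groups. A list of 8 of them was chosen after the values above were seen, and 6 were measured. Their log2 differences, TE-1-siFOXM1 minus TE-1-SCR, ran from -0.075 for RPA2 to 0.078 for RPA1, both subunits of replication protein A. The groups overlapped in all 6, where 27.3% of all genes had no overlap. The median absolute difference was 0.041, beside 0.096 over all genes. The median was 0.021, and none was 1.5-fold apart (0.450% of all genes were lower and 0.562% higher).

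The 8 protein-coding genes nearest to POT1 along chromosome 7 were taken, 4 on each side in the order of the RefSeq table. Of these, 6 were measured and none was 1.5-fold apart (0.450% of all genes were lower and 0.562% higher). The next gene on the side of lower coordinates, GPR37, which encodes a G protein-coupled receptor, had a difference of -0.31 at a level below the median of the arrays. Its log2 expression was 5.63 and 5.28 in TE-1-siFOXM1 cells and 5.85 and 5.68 in TE-1-SCR cells, without overlap. SPAM1, on the same side, was higher without overlap at a low level, with 3.53 and 3.47 against 3.42 and 3.44. Over all genes, 27.3% had no overlap in either direction. On the other side, GRM8 had a difference of -0.14 and ZNF800 had 0.0091, both with overlap. The 6 differences ran from -0.31 to 0.074, and 4 of the genes lay below the median level.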
